A study of Schizosaccharomyces pombe with 4 samples.

Results

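Dynein and its cortical anchor num1 were followed here through 5 genes of the fission yeast Schizosaccharomyces pombe: num1, dhc1, dlc1, dli1 and ssm4. The members were chosen by gene symbol, current or older (the array annotation calls num1 mcp5 and dli1 dil1), and num1 was singled out because it had the largest fall of all genes in the comparison described below. Each member had 1 probe set on the array, and the 5 members stand among 2857 S. pombe genes tested. The study overexpressed Atf1, a stress-responsive transcription factor that the MAP kinase Sty1 activates, in the strain labelled Atf1-OP, and set it against a wild type strain with the empty vector. Each group had 2 arrays, labelled biological replicates, read as log2 signals on an Affymetrix yeast array that carries S. pombe and Saccharomyces cerevisiae probe sets. The promoter of the overexpression vector, the mating type, the medium and the growth stage are not stated in the labels used here. The labels do not say whether replicates were separate transformants, so p-values measure the spread between these samples.

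Cytoplasmic dynein is a motor that walks towards the minus ends of microtubules. In fission yeast it is best known from meiotic prophase, when it pulls the spindle pole body and the attached telomeres back and forth in the horsetail movement of the nucleus. To pull, the motor has to be held at the cell cortex, and that is the role of Num1, also called Mcp5. Dhc1 is the heavy chain with the motor domain, Dli1 a light intermediate chain, Dlc1 a light chain of the Tctex type, and Ssm4 the subunit of dynactin, the activator of dynein, that binds microtubules.

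On the deposited log2 scale the median S. pombe probe set read 6.97 and 6.98 in Atf1-OP cells, against 6.81 and 6.70 in empty vector cells. The background level, taken from S. cerevisiae probe sets, was 2.74 and 2.69 in Atf1-OP cells and higher, at 3.06 and 3.16, in empty vector cells. Values were therefore also compared after quantile normalization, and both scales are given. S. pombe ribosomal RNA control probe sets averaged 10.4 and 10.5 in Atf1-OP cells and 11.1 in both empty vector samples. Hybridization control probe sets were also lower in Atf1-OP cells, at 10.98 and 10.78, against 12.02 and 11.79 in empty vector cells. Poly-A control probe sets were higher in Atf1-OP cells, at 6.58 and 7.28, against 5.74 and 5.68 in empty vector cells. The control probe sets thus differed between the groups, and the part of these differences in the results below was not tested. Over all genes 21.2% passed an adjusted p of 0.05 in limma, 10.2% higher (292 genes) and 11.0% lower (315 genes), while in the deposited values 903 were higher and 116 lower. The atf1 transcript had deposited log2 values of 6.94 and 7.47 in Atf1-OP cells, against 6.01 and 6.19 in empty vector cells. It was higher by 0.83 ± 0.20 (SE) on the normalized log2 scale (limma adjusted p = 0.0273), although the adjusted p was 0.126 without empty vector replicate 1, 0.0795 without empty vector replicate 2, 0.149 without Atf1-OP replicate 2 and 0.0704 without limma's trend of variance with level.

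The transcript of the cortical anchor gene num1 (SPBC216.02) was lower on both Atf1-OP arrays than on both empty vector arrays. Signals deposited for num1, as log2 values, were 5.13 and 5.03 in Atf1-OP cells, against 6.14 and 6.05 in empty vector cells. The groups were far apart, since replicates lay close together and the smallest distance between any pair of arrays from different groups was 0.93 on the deposited log2 scale. All 4 values lay well above background, by 2.39 and 2.34 in Atf1-OP cells and by 3.07 and 2.89 in empty vector cells. After quantile normalization the level was 4.78 ± 0.14 in Atf1-OP cells and 6.27 ± 0.03 in empty vector cells (SD, n = 2 each), a log2 difference of -1.49. Falls of 2-fold or more that passed the threshold made up 0.700% of all genes, and changes of 2-fold or more in either direction 1.75%. Because this value chose the gene, it is given as a description with no test.

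The size of the num1 difference followed the scaling, while its direction did not. It was 2.81-fold lower after quantile normalization, with a log2 difference of -1.24 after median centring and of -1.02, or 2.03-fold, in the deposited values. The median of all genes stood 0.27 higher in Atf1-OP cells in the deposited values, so relative to that median the deposited difference was -1.29. The gene had the largest fall in every setting listed in the plot of differences by processing except without empty vector replicate 1, when it ranked 3. Beside it, the next most negative differences after quantile normalization were those of mek1, a kinase gene of meiotic recombination, at -1.36 and of the histone methyltransferase gene clr4 at -1.34. The mek1 arrays disagreed in empty vector cells, where its deposited log2 values were 4.94 and 6.32.

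**Figure D1:**
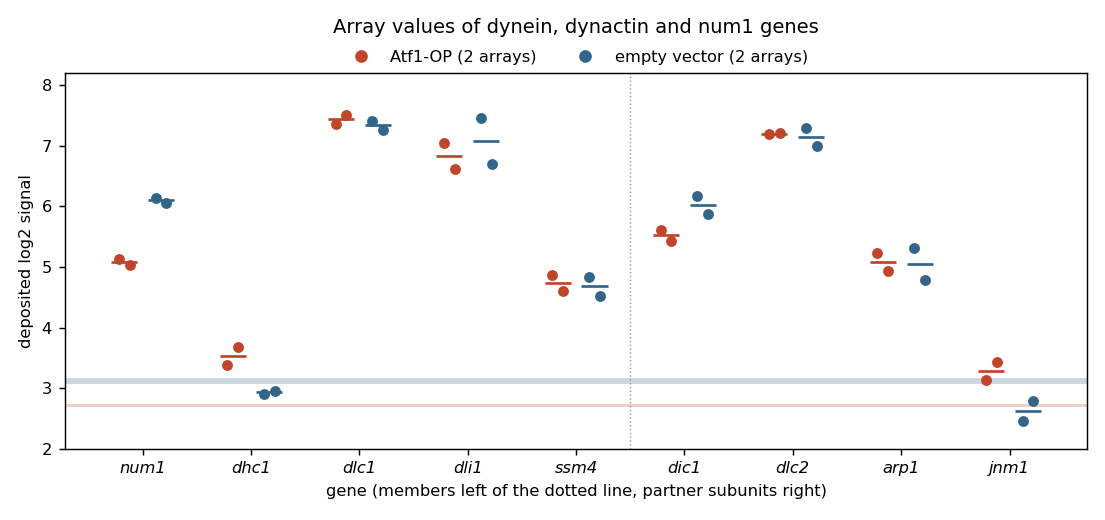
Deposited log2 signal (vertical axis) of the 5 members and of 4 partner subunits on each array, with Atf1-OP in red left of empty vector in blue. Points are arrays, short bars are group means of 2 arrays, and the shaded bands are the background levels of each group in its colour. The num1 points of the groups lie 0.93 or more apart, while dhc1 in empty vector cells lies below the background of that group.

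The heavy chain gene dhc1 (SPAC1093.06C) was close to background on every array. The deposited log2 values of dhc1 were 3.38 and 3.67 in Atf1-OP cells, against 2.91 and 2.95 in empty vector cells. Both Atf1-OP arrays lay above their background, by 0.64 and 0.99, and both empty vector arrays lay below theirs, so that the gene entered the test only through the group in which it was higher. With the empty vector arrays set to their normalized background, a mean of 3.29, the dhc1 mean of 3.36 in Atf1-OP cells was 1.05-fold higher. The normalized mean measured in empty vector cells was 3.07. Atf1-OP replicate 1, at 3.30, lay below the normalized background of empty vector replicate 2, at 3.33, so this bound does not hold for each array. Quantile normalization gave both empty vector arrays the same value, so their spread is not known on that scale. At 12591 bp in the RefSeq annotation dhc1 is the longest member, and subtracting the trend of differences with gene length left a log2 difference of 0.14, against 0.29 without that step.

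The light chain gene dlc1 (SPAC1805.08) gave overlapping groups. On the deposited scale it read 7.35 and 7.51 in Atf1-OP cells, against 7.41 and 7.26 in empty vector cells. The normalized difference of -0.06 was smaller than the SD of either group, 0.097 in Atf1-OP cells and 0.064 in empty vector cells. Its sign was positive in the deposited values, at 0.093, with the length correction, at 0.050, and without Atf1-OP replicate 1, at 0.0093.

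For the light intermediate chain gene dli1 (SPAC458.04C) the replicates of each group differed as much as the groups did or more. On the deposited log2 scale dli1 read 7.04 and 6.61 in Atf1-OP cells, against 7.46 and 6.69 in empty vector cells. The groups overlapped, and the normalized levels were 6.70 ± 0.36 in Atf1-OP cells and 7.19 ± 0.47 in empty vector cells (SD, n = 2 each). The log2 difference was -0.49 with all arrays. It was -0.15 without empty vector replicate 1 and -0.80 without empty vector replicate 2, and it was -0.76 without Atf1-OP replicate 1 and -0.24 without Atf1-OP replicate 2.

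The dynactin gene ssm4 (SPAC27D7.13C) was lower in Atf1-OP cells after quantile normalization and median centring, but not in the deposited values. On the deposited log2 scale ssm4 read 4.87 and 4.60 in Atf1-OP cells, against 4.83 and 4.53 in empty vector cells. On this scale the groups overlapped and differed by 0.058, with all values 1.36 or more above background. After quantile normalization the level was 4.43 ± 0.26 in Atf1-OP cells and 4.95 ± 0.09 in empty vector cells (SD, n = 2 each), and the groups did not overlap. The normalized log2 difference was thus -0.52, and after median centring it was -0.16. Relative to the median of all genes the deposited difference was -0.21.

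Among the 5 members, 1 passed the threshold of the fit across all genes, num1, and 4 did not, against 21.2% of all genes. Since the members were chosen with this comparison in view, nothing is read from that count. On the deposited scale the groups did not overlap for 2 members, num1 lower and dhc1 higher, against 74.1% of all genes (14.0% lower and 60.1% higher). After quantile normalization this held for 3, num1 and ssm4 lower and dhc1 higher, against 66.4% of all genes (34.4% lower and 32.0% higher). Both counts include num1, chosen for its fall, and dhc1, tested only through the group in which it was higher, so nothing is read from them either. The median difference of the members, num1 included, was -0.49 after normalization, against -0.01 for all genes tested, but 0.058 in the deposited values, against 0.27 for all genes. Only num1 was lower with no overlap on both scales, while dhc1 was below background in empty vector cells, dlc1 and dli1 overlapped on both scales and ssm4 overlapped on the deposited one.

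**Figure D2:**
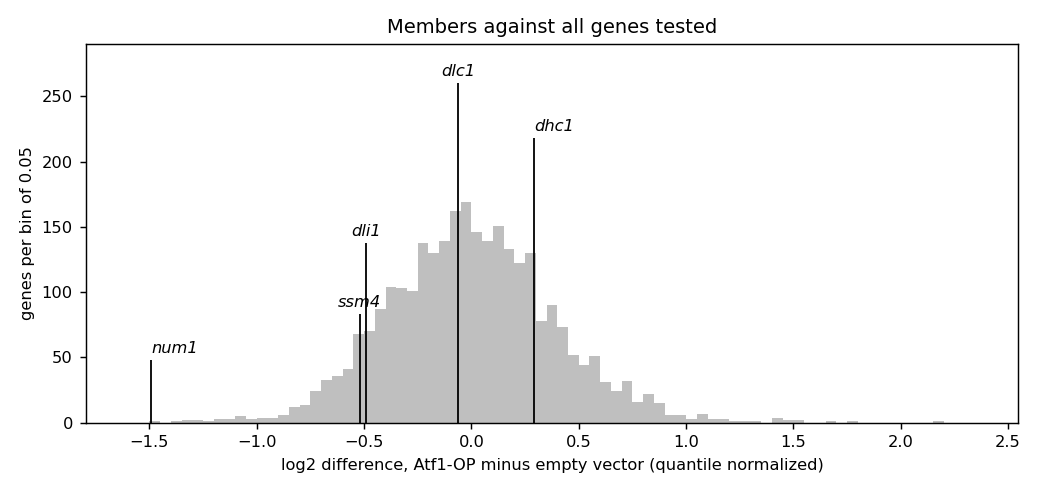
Number of genes (vertical axis) per bin of log2 difference, Atf1-OP minus empty vector, after quantile normalization (horizontal axis), for the 2857 genes tested, with the members marked by vertical lines. The num1 line at -1.49 lies at the left end, and the lines of the other members, from -0.52 to 0.29, lie within the bulk of the genes.

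**Figure D3:**
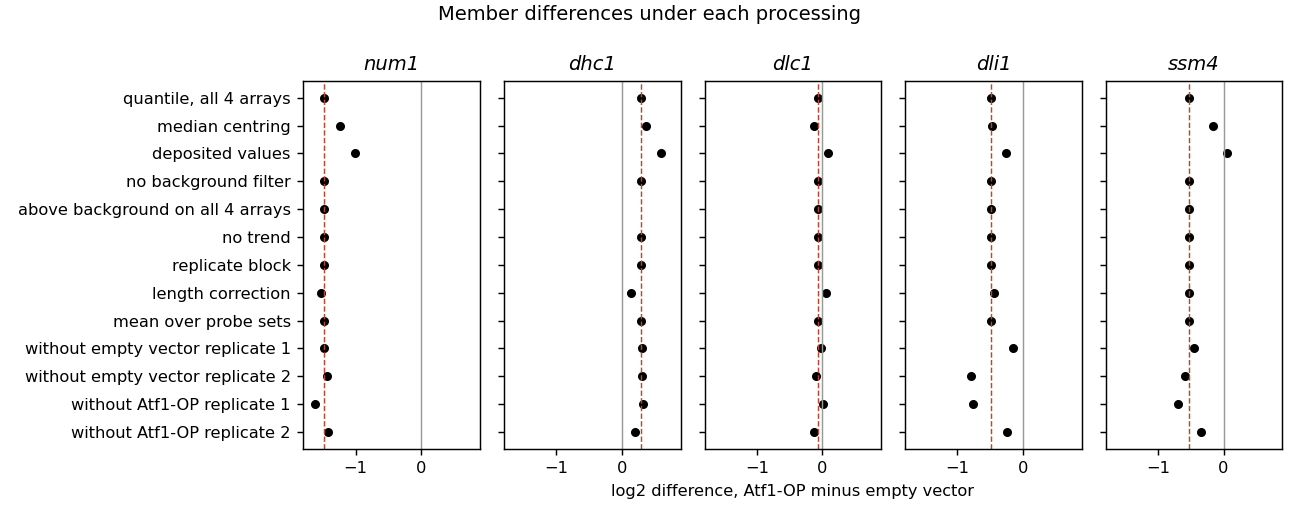
Log2 difference, Atf1-OP minus empty vector (horizontal axis), of each member under each processing (rows), with the dashed line at the value after quantile normalization of all 4 arrays. The num1 points run from -1.63 to -1.02, while those of dlc1 and ssm4 lie on both sides of 0, and dhc1 has no value where all 4 arrays had to be above background.

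The array also carries S. cerevisiae probe sets, and those named for the same machinery are given as a description. Of 9 S. cerevisiae names looked up, 4 were found, NUM1, JNM1, ARP1 and PAC1, the last of which encodes the budding yeast Lis1 protein. Their deposited log2 values lay between 1.71 and 2.94 on all arrays, and none was above background on any array. Background was itself the 95th percentile of the S. cerevisiae probe sets, to which these 4 belong. That outcome was therefore nearly fixed in advance, and nothing is read from it about the S. pombe probe sets. The S. cerevisiae NUM1 probe set had 2.16 and 2.32 in Atf1-OP cells, against 2.22 and 2.62 in empty vector cells.

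Of the partner subunits of dynein and dynactin that were not members, the intermediate chain gene dic1 was lower in Atf1-OP cells. The list held 5 names, of which 4 were matched to a probe set. Of these 4, 1 fell, none rose and 3 did not pass, where 11.0% of all genes were lower and 10.2% higher. With so few genes nothing is read from this count about the list. Deposited log2 values of dic1 were 5.61 and 5.43 in Atf1-OP cells, against 6.17 and 5.87 in empty vector cells, so that the groups did not overlap. Normalized levels were 5.28 ± 0.18 in Atf1-OP cells and 6.21 ± 0.12 in empty vector cells (SD, n = 2 each), and dic1 fell by 0.93 ± 0.17 (SE) on the log2 scale (limma adjusted p = 0.0133). The adjusted p was 0.0680 in the deposited values, where the difference was -0.50, and it was 0.0679 without empty vector replicate 1, 0.0557 without empty vector replicate 2 and 0.0734 without Atf1-OP replicate 2.

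The other partner subunits did not pass. For dlc2, which encodes a light chain of the LC8 type, deposited log2 values were 7.19 and 7.20 in Atf1-OP cells, against 7.29 and 6.99 in empty vector cells (normalized difference -0.12, limma adjusted p = 0.514). For arp1, which encodes the actin-related protein of the dynactin filament, they were 5.23 and 4.93 in Atf1-OP cells, against 5.31 and 4.78 in empty vector cells (normalized difference -0.51, limma adjusted p = 0.134). Both genes had a difference slightly above 0 in the deposited values, 0.054 for dlc2 and 0.034 for arp1. The dynactin gene jnm1 had deposited log2 values of 3.14 and 3.44 in Atf1-OP cells, against 2.46 and 2.78 in empty vector cells, where it was not above background (limma adjusted p = 0.226). The median normalized difference of the 4 genes was -0.31, against -0.01 for all genes.

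Genes that work with dynein in the horsetail movement, or build the spindle pole body from which its microtubules grow, gave 2 calls. Among 17 such genes, all tested, 1 rose, 1 fell and 15 stayed short of the threshold, where 10.2% of all genes were higher and 11.0% lower, and the median normalized log2 difference was -0.08. The gene that rose was bqt4, whose product holds telomeres at the nuclear envelope. On the deposited log2 scale bqt4 read 8.11 and 8.55 in Atf1-OP cells, against 7.63 and 7.59 in empty vector cells, a normalized difference of 0.57 ± 0.13 (SE, limma adjusted p = 0.0241). The gene that fell was sad1, which encodes the SUN domain protein linking the spindle pole body to chromosomes. Deposited signals of sad1 read 4.39 and 4.48 in Atf1-OP cells, against 4.66 and 4.63 in empty vector cells, a normalized difference of -0.75 ± 0.18 (SE, limma adjusted p = 0.0279). The adjusted p of bqt4 was 0.113, 0.133 and 0.0710 without empty vector replicate 1, without empty vector replicate 2 and without Atf1-OP replicate 2, and 0.0708 without trend, and that of sad1 lay between 0.0739 and 0.144 in the 4 fits that left out an array. For sad1 it was 0.146 after median centring and 0.409 in the deposited values, where its difference was -0.21, while 4 genes of the list rose and none fell.

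Among the partners of num1 in name, the other meiotic coiled-coil genes numbered mcp1 to mcp7, 5 were tested. None rose and 1 fell, where 10.2% of all genes were higher and 11.0% lower. The gene that fell was mcp7, the Mnd1 homologue of meiotic recombination. Signals of mcp7 on the deposited log2 scale were 6.41 and 6.80 in Atf1-OP cells, against 7.56 and 7.44 in empty vector cells. Normalized levels were 6.46 ± 0.30 in Atf1-OP cells and 7.58 ± 0.05 in empty vector cells (SD, n = 2 each), and mcp7 fell by 1.12 ± 0.16 (SE) on the log2 scale (limma adjusted p = 0.00681). It passed in 11 of 12 alternative fits and had an adjusted p of 0.0521 without empty vector replicate 1. The horsetail gene mcp6, whose product organises the astral microtubules that dynein pulls on, had deposited log2 values of 4.29 and 4.30 in Atf1-OP cells, against 3.79 and 4.57 in empty vector cells, and did not pass (normalized difference -0.44, limma adjusted p = 0.308). The median of the 5 genes was -0.44, and in the deposited values it was 0.11.

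In dividing cells the RNA-binding protein Mmi1 removes a set of meiotic transcripts, of which ssm4 is a known one, and Mei2 sequesters Mmi1 at meiotic entry. Of 6 tested genes of this elimination machinery 1 rose, 1 fell and 4 missed the threshold. Over all genes 10.2% were higher and 11.0% lower, and the median normalized log2 difference of the 6 was 0.04. The gene that fell was mmi1 itself, with deposited log2 values of 5.19 and 4.96 in Atf1-OP cells, against 5.23 and 5.66 in empty vector cells. Its normalized difference was -0.90 ± 0.23 (SE, limma adjusted p = 0.0315), and its adjusted p lay between 0.0506 and 0.208 in the 4 fits that left out an array. It was 0.207 in the deposited values, 0.0572 after median centring and 0.0627 without trend. The gene that rose was mei2, with deposited values of 8.16 and 8.33 in Atf1-OP cells, against 7.62 and 7.67 in empty vector cells. Its normalized difference was 0.44 ± 0.10 (SE, limma adjusted p = 0.0234), with adjusted p values of 0.167, 0.127 and 0.0776 without empty vector replicate 1, without empty vector replicate 2 and without Atf1-OP replicate 2, and 0.0611 without trend.

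Of 8 other meiotic transcripts listed as Mmi1 targets, 6 were tested. Among these 3 fell, none rose and 3 did not pass, against 11.0% of all genes lower. The list was chosen with earlier results of these data known, so nothing is read from this count. Beside mcp7, which is shared with the mcp list, the genes that fell were crs1 and mei4. The first is a meiotic cyclin gene, and mei4, also a meiotic entry marker below, encodes the forkhead factor of middle meiosis. Deposited log2 values of crs1 were 3.88 and 3.72 in Atf1-OP cells, against 4.34 and 4.37 in empty vector cells, a normalized difference of -1.09 ± 0.21 (SE, limma adjusted p = 0.0143). Those of mei4 were 4.20 and 4.25 in Atf1-OP cells, against 4.86 and 4.15 in empty vector cells, so that they overlapped before normalization. The normalized mei4 difference was -0.79 ± 0.23 (SE, limma adjusted p = 0.0464), with an adjusted p of 0.139 after median centring and 0.0630 without trend. Neither crs1 (adjusted p = 0.0602) nor mei4 (adjusted p = 0.427) passed in the deposited values, in which the median of the list was 0.084, against a normalized median of -0.45. There 1 of the 6 genes rose and 1 fell. Without empty vector replicate 1 none of the 6 genes passed, with adjusted p values of 0.0526 for crs1 and 0.173 for mei4, and without Atf1-OP replicate 2 only mcp7 did, with 0.104 for crs1 and 0.237 for mei4. Without Atf1-OP replicate 1 the adjusted p of mei4 was 0.153, and without empty vector replicate 2 that of crs1 was 0.0632.

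**Figure D4:**
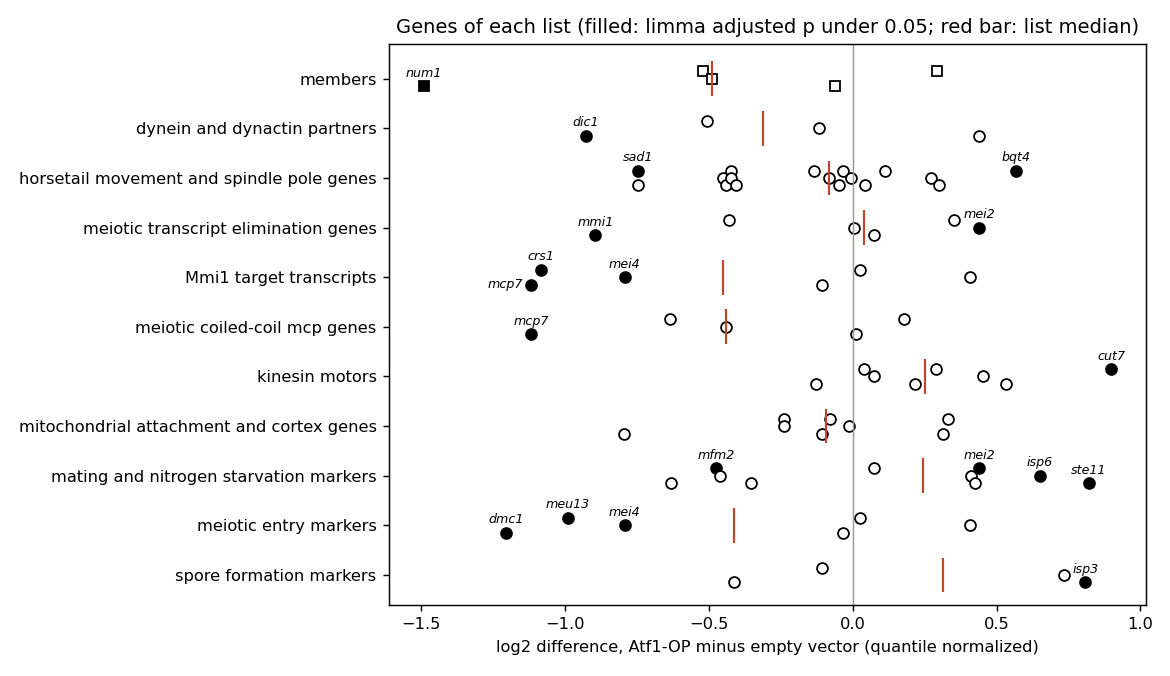
Log2 difference, Atf1-OP minus empty vector, after quantile normalization (horizontal axis) of each gene in each list (rows), with squares for the members and circles for other genes. Filled symbols passed limma's adjusted p of 0.05 and are named, and red bars are list medians. The kinesin median lies at 0.25, and the medians of the partner subunits and of the Mmi1 targets lie at -0.31 and -0.45.

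Kinesins are the other family of microtubule motors, most of which walk towards plus ends. Among 8 tested, where 10.2% of all genes were higher and 11.0% lower, 7 did not pass, none fell and 1 gene rose. It was cut7, the kinesin of the bipolar spindle, with deposited log2 values of 6.31 and 6.19 in Atf1-OP cells, against 4.77 and 5.05 in empty vector cells. Its normalized difference was 0.90 ± 0.19 (SE, limma adjusted p = 0.0194), and the adjusted p was 0.0837 without empty vector replicate 1, 0.0965 without Atf1-OP replicate 1 and 0.0902 without Atf1-OP replicate 2. The kinesins that, like dynein, walk towards minus ends did not pass. For pkl1 the normalized difference was -0.13 (limma adjusted p = 0.570). The klp2 gene was not above background in empty vector cells (limma adjusted p = 0.162). Its normalized mean in Atf1-OP cells was 1.18-fold above the mean empty vector background of 3.29. That came from Atf1-OP replicate 2, at 3.79, since Atf1-OP replicate 1, at 3.27, did not exceed this background. The kinesin median was 0.25. Whether kinesin genes and dynein genes differed in their response was not tested.

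Num1 in budding yeast holds mitochondria as well as dynein at the cortex, and genes of mitochondrial attachment and form were listed for that reason. Of 8 tested, 0 passed in limma, against 21.2% of all genes, and 2 had an unadjusted p under 0.05. Those with the smallest p were mmm1, of the tether between mitochondria and endoplasmic reticulum, at a normalized difference of -0.80 (limma adjusted p = 0.0657), the fission dynamin gene dnm1 at 0.33 (limma adjusted p = 0.102) and mdm34 at -0.24 (limma adjusted p = 0.210).

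The genes beside the members on the chromosomes are given next. Taking the nearest tested gene on each side gave 10 genes, 6 of them direct neighbours among protein-coding genes, of which 1 rose, 1 fell and 8 did not pass, a share close to the 21.2% that passed among all genes. The nearest tested genes beside num1 were erg1, a sterol synthesis gene, and the checkpoint kinase gene rad3. Neither was a direct neighbour, with 1 protein-coding gene between num1 and erg1 and 2 between num1 and rad3. Deposited log2 values of erg1 were 8.14 and 8.15 in Atf1-OP cells, against 8.31 and 8.28 in empty vector cells. It fell by 0.31 ± 0.09 (SE) on the normalized log2 scale (limma adjusted p = 0.0490), but not without empty vector replicate 1 (adjusted p = 0.237), empty vector replicate 2 (adjusted p = 0.257) or Atf1-OP replicate 2 (adjusted p = 0.0863), nor in the deposited values (adjusted p = 0.235) or without trend (adjusted p = 0.0962). For rad3 the normalized difference was 0.08 (limma adjusted p = 0.826). Beside ssm4, but1 rose, with deposited log2 values of 6.44 and 6.45 in Atf1-OP cells, against 5.54 and 5.28 in empty vector cells and a normalized difference of 0.62 ± 0.15 (SE, limma adjusted p = 0.0258), although its adjusted p lay between 0.0826 and 0.130 with an array left out. The other neighbour of ssm4 (tpr1) and those of dhc1 (ppr5 and mmd1), dlc1 (dad2 and fmt1) and dli1 (tel2 and pik3) had normalized differences from -0.24 to 0.34 and did not pass. Of these, dad2 passed with median centring, at 0.70 (adjusted p = 0.0242), and in the deposited values, at 0.92 (adjusted p = 0.0157). Likewise ppr5 passed in the deposited values, at 0.48 (adjusted p = 0.0167), with the replicate block (adjusted p = 0.0462) and without Atf1-OP replicate 1 (adjusted p = 0.0423).

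The genes whose normalized values followed num1 most closely over the 4 arrays were found by the Euclidean distance between profiles, each centred on the gene's own mean. In order they were mug116, a gene upregulated in meiosis, at a distance of 0.16, clr4 at 0.24, the histone methyltransferase gene set7 at 0.29, mug62 at 0.33 and the cyclophilin gene wis2 at 0.35. Deposited log2 values of mug116 were 4.13 and 3.96 in Atf1-OP cells, against 4.98 and 4.82 in empty vector cells. Those of clr4 were 5.23 and 4.91 in Atf1-OP cells, against 5.90 and 5.94 in empty vector cells. The values of wis2 were 9.19 and 9.28 in Atf1-OP cells, against 10.1 and 10.2 in empty vector cells, and those of set7 were 6.59 and 6.23 in Atf1-OP cells, against 7.42 and 7.38 in empty vector cells. For mug62 both Atf1-OP arrays, at 2.67 and 2.48, were not above background, against 3.35 and 3.72 in empty vector cells. Genes found in this way had to be lower in Atf1-OP cells, so no test of them is given.

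**Figure D5:**
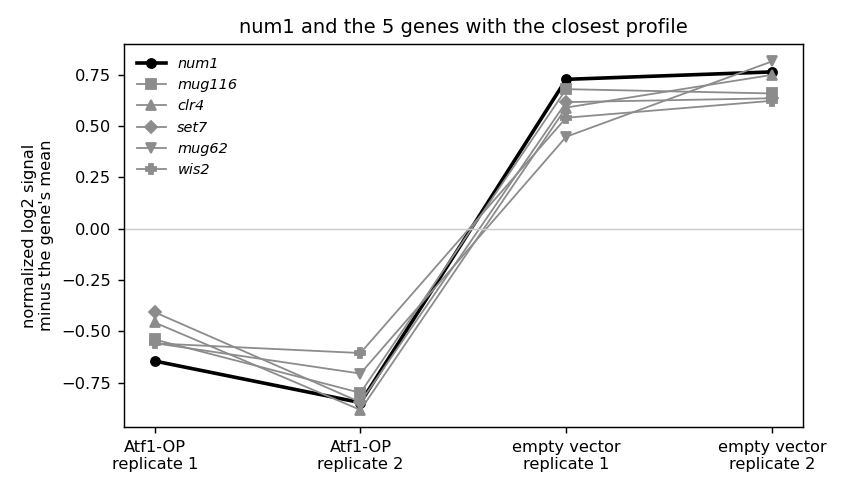
Normalized log2 signal minus the mean of the gene over 4 arrays (vertical axis) on each array (horizontal axis) for num1, in black, and the 5 genes with the closest profile, in grey. All 6 genes lie below their mean on both Atf1-OP arrays and above it on both empty vector arrays.

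For the other members the closest profiles were those of mog1 and snx41 for dhc1, at distances of 0.0046 and 0.022, and those of pab1 and mrt4 for dlc1, at 0.028 and 0.033. For dli1 they were mis15 and the cell fusion gene fus1, at 0.14 and 0.17, and for ssm4 pex13 and the meiotic recombination gene rec15, at 0.034 and 0.050. With 4 arrays a profile holds little information. None of the closest genes of any member was another member or a partner subunit.

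Because num1, dhc1 and ssm4 are best known from meiosis, markers of cells that mate, enter meiosis or form spores were read in the same arrays. In a whole culture, fewer cells with a transcript and less transcript per cell cannot be told apart. Of 10 markers of mating and nitrogen starvation 3 rose (ste11, isp6 and mei2) and 1 fell (mfm2). Over all genes 10.2% were higher and 11.0% lower. The summed linear signal of the 10 markers after normalization was 7001 and 6975 in Atf1-OP cells, against 7137 and 7213 in empty vector cells. The brightest marker, the pheromone gene mfm2, made up 3621 and 3206 of these sums in Atf1-OP cells, against 4732 in both empty vector samples. The sum of the other 9 markers, taken after the mfm2 values were seen, went the opposite way. It was 3380 and 3769 in Atf1-OP cells, against 2405 and 2481 in empty vector cells. Single markers did not all do so. The normalized differences of map2, map3 and fus1, which did not pass, were -0.63, -0.46 and -0.35, while 6 of the 10 markers were higher. Of 6 tested markers of meiotic entry none rose and 3 fell (dmc1, meu13 and mei4), against 11.0% of all genes lower. Since mei4, rec8 and rec10 are also in the list of Mmi1 targets, the counts of these lists are not independent. The same holds for other lists, with mei2 in both the mating and elimination lists. Likewise spo5 is in both the spore and Mmi1 lists, and mcp6 in both the horsetail and mcp lists. All lists were chosen with earlier results of these data known, so nothing is read from their counts. The summed signal of the 6 meiotic entry markers was 181 and 153 in Atf1-OP cells, against 251 in both empty vector samples. In the deposited values 1 of these 6 rose and 1 fell, and without trend 1 fell. The meiotic inducer gene mei3 was above background on fewer than 2 arrays and was not tested. Of 4 tested spore formation markers 1 rose (isp3) and none fell, where 10.2% of all genes were higher and 11.0% lower. The sums of the 4 markers were 49.3 and 57.6 in Atf1-OP cells, against 45.1 and 45.8 in empty vector cells. In empty vector cells meu10 was above background on neither array. There isp3 read 3.14 and 3.09 on the deposited log2 scale and was above background only on replicate 1. With all 4 arrays required above background, no spore marker passed and the list median was -0.11. Without empty vector replicate 1 none of the 3 marker lists had a gene that passed, without empty vector replicate 2 the mating and meiotic entry lists had 1 each, and without Atf1-OP replicate 2 no meiotic entry or spore marker passed. Without Atf1-OP replicate 1 no spore marker passed either. The part of such cells in the num1 difference was not tested.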

How the data were processed

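Per the labels' protocols, total RNA was labelled with biotin for Affymetrix arrays. The authors deposited 1 log2 value per probe set and array, a unit judged from the values' range. How these log2 values were summarised and normalized is not given in the sources used here, and scanner files were not used.

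Groups and replicate numbers came from the sample titles. Of 10928 probe sets, 2914 were matched to S. pombe genes by identifier and 3 by symbol, with names and gene lengths from RefSeq assembly ASM294v3. Quantile normalization used the S. pombe probe sets, and of a gene's probe sets the brightest was kept. Background was set at the 95th percentile of the 2593 S. cerevisiae probe sets, and a gene was tested if above it on at least 2 arrays. Of 2899 genes, 2857 were tested with limma 3.58.1 (R 4.3.3, trended eBayes, Benjamini-Hochberg adjustment over all 2857 genes, threshold 0.05). The fit was tested on simulated data with independent noise on each array and the spread shuffled over genes. Those data held no difference between whole arrays, so the check does not cover the differences seen in the control probe sets. Figures used matplotlib 3.10.9 in Python 3.11.15.

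The members and gene lists were chosen with earlier results of these data known, and num1 for its fall in this comparison, so members carry no test. The names given are those of the members, atf1, all partner subunits, listed genes that passed (otherwise up to 3 with the smallest p), the next largest fall, the nearest tested genes and the closest profiles. Others, such as mcp6, pkl1, klp2, mei3 and clr4 among the falls, were added after their values were seen. The rule by product text for further dynein genes was not applied, since no product text was at hand. Alternatives were other scalings and filters, no trend, a replicate block, a length correction, the mean over probe sets and leaving out each array, with renormalization of the other 3. Fits with an array left out take the spread of the remaining single array from that of the other group.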

Additional observations from a re-analysis of the deposited data

How the results depend on the processing

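With 2 arrays per group an exact permutation test of a single gene cannot go below p = 0.333, so every call rests on the variance that limma shares across genes. The number of genes passing, 607 with all arrays, was 1019 in the deposited values (903 higher and 116 lower), 165 without trend, and 63 to 657 with 1 array left out, lowest without empty vector replicate 1. The num1 difference, a description with no test, was -1.24 after median centring, -1.02 in the deposited values and -1.63 to -1.43 with 1 array left out. For dhc1 the difference was 0.38, 0.60 and 0.14 with median centring, the deposited values and the length correction, and 0.20 to 0.33 with 1 array left out. For dlc1 it was 0.093 in the deposited values, 0.050 with the length correction and -0.13 to 0.0093 with 1 array left out. For ssm4 it was -0.16 and 0.058 with median centring and the deposited values.

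Counts of genes passing moved as follows. The partner subunits had 0 in the deposited values and 0 to 1 with 1 array left out. The horsetail list had 1 with median centring, 4 in the deposited values, 1 without trend and 0 to 1 with 1 array left out. The elimination list had 1 with median centring, 0 without trend and 0 to 1 with 1 array left out. The Mmi1 targets had 0 to 2 and the mcp genes 0 to 1 with 1 array left out. Kinesins had 2 with median centring, 3 in the deposited values and 0 to 1 with 1 array left out. The mitochondrial list had 1 in the deposited values and 0 to 1 with 1 array left out. The mating markers (4 with all arrays) had 1 without trend, the meiotic entry markers (3) had 1 without trend, and the spore markers (1) had 2 in the deposited values.

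List medians changed sign in the deposited values for the members (0.058), the partner subunits (0.044), the horsetail list (0.15), the Mmi1 targets (0.084), the mcp genes (0.11), the mitochondrial list (0.14) and the meiotic entry markers (0.11). They also did so for the elimination list (-0.034 to 0.068) and the mcp genes (-0.86 to 0.0022) with 1 array left out, lowest without empty vector replicate 1 in both, and for the spore markers with other background filters (-0.11). Single genes that did not pass changed sign too. In the deposited values dlc2 stood at 0.054, arp1 at 0.034 and fmt1 at 0.23, which was 0.0085 with median centring and ran from -0.54 to 0.020 with 1 array left out. The rad3 difference was -0.056 with the length correction, -0.077 to 0.24 with 1 array left out, and tel2 stood at -0.055 to 0.14 with 1 array left out. In the deposited values the median of all genes stood at 0.27, above the median of each list that changed sign there. The other lists stood above 0.27 on that scale. Their medians were 0.56 for the kinesins, 0.39 for the elimination list, 0.39 for the mating markers and 0.71 for the spore markers. The causes of these shifts were not tested.

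The labels number the replicates in both groups but do not say that a number marks a shared culture, and deviations of same-numbered arrays correlated at 0.038 over genes. With the replicate number as a block (replicate block), 852 genes passed, and the count among the members was 2, num1 and dli1. With this block the horsetail list had 4, the mcp genes 2 and the mitochondrial list 2.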
